A study of Homo sapiens with 18 samples.

Results

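This account covers 10 genes for RNA-binding and splicing regulators that are best known from neurons: ELAVL2, ELAVL3, ELAVL4, RBFOX1, RBFOX2, RBFOX3, PTBP1, PTBP2, NOVA1 and NOVA2. They were taken by symbol from the array's probe annotation, which names 17687 distinct genes, and where a gene has several probes the probe was to be chosen by its mean signal over the 18 arrays. A probe was named for 9 of the 10. Each of the 9 had 1 probe, so the mean signal chose nothing, and PTBP1 had no named probe and has no value here. The lines SK-N-BE(2) and CHLA-90, both from human neuroblastoma, gave RNA 72 hours after transduction with lentivirus made in HEK-293T cells. The virus carried the hairpin shERK5-4, the hairpin shERK5-5 or the control hairpin shNSC in a pLKO vector. Both ERK5 hairpins are directed at ERK5, a kinase of the MAP kinase family whose gene is MAPK7, so each line has 3 groups. Each of the 6 groups has 3 arrays, described by the submitters as biological triplicates, and all 18 were of whole-transcript type.

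RNA-binding proteins of these families set which exons a neuron keeps and how long its transcripts last. The ELAVL (Hu) proteins bind AU-rich and U-rich stretches, stabilise many transcripts and also act in splicing. RBFOX proteins bind GCAUG-containing sequences and NOVA proteins bind YCAY-containing sequences, and both promote or repress an exon according to where they bind. PTBP1 and PTBP2 are polypyrimidine-tract-binding proteins that mostly repress exons. During neuronal development PTBP1 gives way to PTBP2, which later declines as neurons mature. ELAVL2, ELAVL3 and ELAVL4 are long-used markers of neuronal and neuroendocrine identity, and ELAVL4 (HuD) was found as an autoantigen in patients with small-cell lung cancer.

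Values are log2 signals per array, so a step of 1 is a 2-fold step. Levels are compared between groups for the same probe and never between probes. A gene is said to have risen or fallen where limma's p, adjusted by Benjamini-Hochberg over all 21448 probes, was below 0.05. Differences are given with the standard error (SE) of the fit, and group means with the standard deviation (SD) of 3 arrays. Both comparisons with shNSC in a line share the same shNSC arrays and are not independent of each other. In RNA from a whole culture, fewer cells of a kind and less RNA per cell cannot be told apart.

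The targeted gene fell in all 4 comparisons with shNSC. In SK-N-BE(2) MAPK7 had 5.97, 6.28 and 6.02 with shERK5-4 and 6.14, 6.02 and 6.28 with shERK5-5, against 6.99, 6.46 and 6.90 with shNSC. In CHLA-90 it had 7.15, 7.57 and 7.33 with shERK5-4 and 7.24, 7.83 and 7.22 with shERK5-5, against 8.37, 8.24 and 8.64 with shNSC. No hairpin array reached its line's shNSC arrays. The log2 differences were -0.69 and -0.64 in SK-N-BE(2) (adjusted p = 0.0103 and 0.0319) and -1.07 and -0.99 in CHLA-90 (adjusted p = 0.000329 and 0.00139), each pair with shERK5-4 named before shERK5-5. An exact permutation test that set both hairpins together (6 arrays) against shNSC (3 arrays) gave a two-sided p of 0.0238 in each line, the smallest that 84 assignments allow when the smaller tail is doubled. In SK-N-BE(2) the call was lost without shNSC replicate 1 for shERK5-4 (-0.59, adjusted p = 0.061). For shERK5-5 it was lost without shNSC replicate 1, shNSC replicate 3, shERK5-5 replicate 1 or shERK5-5 replicate 2 (-0.53, -0.58, -0.63 and -0.57). shERK5-4 and shERK5-5 did not differ in MAPK7 beyond the error in either line (log2 difference -0.06, 95% interval -0.461 to 0.347, in SK-N-BE(2) and -0.08, -0.484 to 0.324, in CHLA-90).

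**Figure D1:**
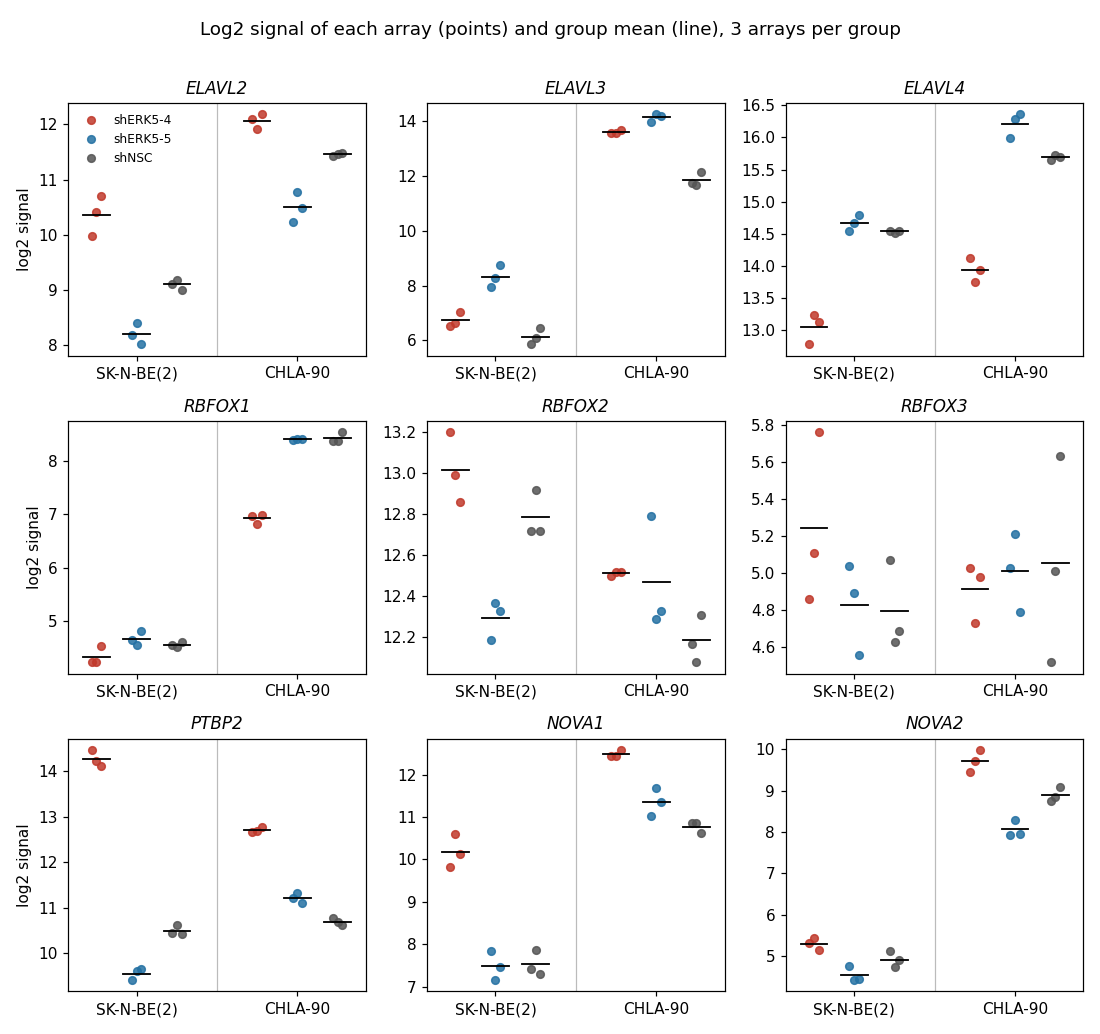
Log2 signal (vertical axis, own scale for each gene and not starting at 0) of the 9 measured genes on all 18 arrays, by line, with shERK5-4 in red, shERK5-5 in blue, shNSC in grey and the group mean as a black line. PTBP2 reached 14.11 to 14.47 with shERK5-4 in SK-N-BE(2), above every other array, while RBFOX3 overlapped between all groups.

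PTBP2, the neuronal member of the polypyrimidine-tract-binding pair, rose with shERK5-4 in both lines. It had the widest spread of the 9 after subtraction of each line's mean. In SK-N-BE(2) its signals were 14.47, 14.23 and 14.11 with shERK5-4 and 9.41, 9.60 and 9.64 with shERK5-5, against 10.44, 10.61 and 10.42 with shNSC. The shERK5-4 arrays lay far above and the shERK5-5 arrays all below the shNSC arrays. That was 13.7-fold higher with shERK5-4 (log2 difference 3.78, SE 0.15, adjusted p = 7.2e-14) and 1.92-fold lower with shERK5-5 (-0.94, SE 0.15, adjusted p = 0.000104). In CHLA-90 PTBP2 had 12.66, 12.69 and 12.77 with shERK5-4 and 11.21, 11.32 and 11.10 with shERK5-5, against 10.78, 10.69 and 10.61 with shNSC. Here both hairpins lay above shNSC without overlap. The rise was 4.04-fold with shERK5-4 (2.01, SE 0.15, adjusted p = 1.58e-09) and 1.43-fold with shERK5-5 (0.52, SE 0.15, adjusted p = 0.0255). The call for shERK5-5 in CHLA-90 was lost without shNSC replicate 2, shNSC replicate 3, shERK5-5 replicate 1 or shERK5-5 replicate 2, with adjusted p-values of 0.064, 0.095, 0.0521 and 0.0775. PTBP2 is annotated at chr1:96721784-96823739 in RefSeq's GRCh38.p14.

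NOVA1, whose protein regulates exons of synaptic genes, rose with shERK5-4 in both lines. In SK-N-BE(2) it had 9.82, 10.60 and 10.12 with shERK5-4 and 7.83, 7.16 and 7.46 with shERK5-5, against 7.42, 7.87 and 7.31 with shNSC. The shERK5-4 arrays stood apart, and the shERK5-5 arrays lay among the shNSC arrays. The rise with shERK5-4 was 6.26-fold (2.65, SE 0.22, adjusted p = 4.53e-09), and the difference with shERK5-5 was -0.05 (95% interval -0.503 to 0.403). In CHLA-90 NOVA1 had 12.45, 12.43 and 12.58 with shERK5-4 and 11.02, 11.68 and 11.35 with shERK5-5, against 10.85, 10.86 and 10.62 with shNSC. The 3 groups did not overlap. The rise with shERK5-4 was 3.27-fold (1.71, SE 0.22, adjusted p = 4.2e-06). The difference with shERK5-5 was 0.57 (SE 0.22) and did not pass the threshold over all arrays (adjusted p = 0.0909), although it did without shERK5-5 replicate 1 (0.74, adjusted p = 0.0494). NOVA1 lies at chr14:26443090-26598033.

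NOVA2, the paralogue of NOVA1 with a wide role in cortical neurons, moved in CHLA-90 in opposite directions with the hairpins. There it had 9.46, 9.72 and 9.98 with shERK5-4 and 7.93, 8.30 and 7.96 with shERK5-5, against 8.75, 8.84 and 9.08 with shNSC. Every shERK5-4 array was above and every shERK5-5 array below the shNSC arrays. The log2 difference was 0.83 with shERK5-4 (SE 0.18, adjusted p = 0.00162) and -0.83 with shERK5-5 (SE 0.18, adjusted p = 0.00303). In SK-N-BE(2) NOVA2 was below the array's median signal on 9 of 9 arrays, with group means of 5.30 ± 0.14 with shERK5-4 and 4.55 ± 0.182 with shERK5-5, against 4.92 ± 0.195 with shNSC (SD, n = 3). Neither difference there passed the threshold (0.38, adjusted p = 0.145, with shERK5-4 and -0.37, adjusted p = 0.221, with shERK5-5). Without detection calls, how far such a level lies above background is unknown.

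**Figure D2:**
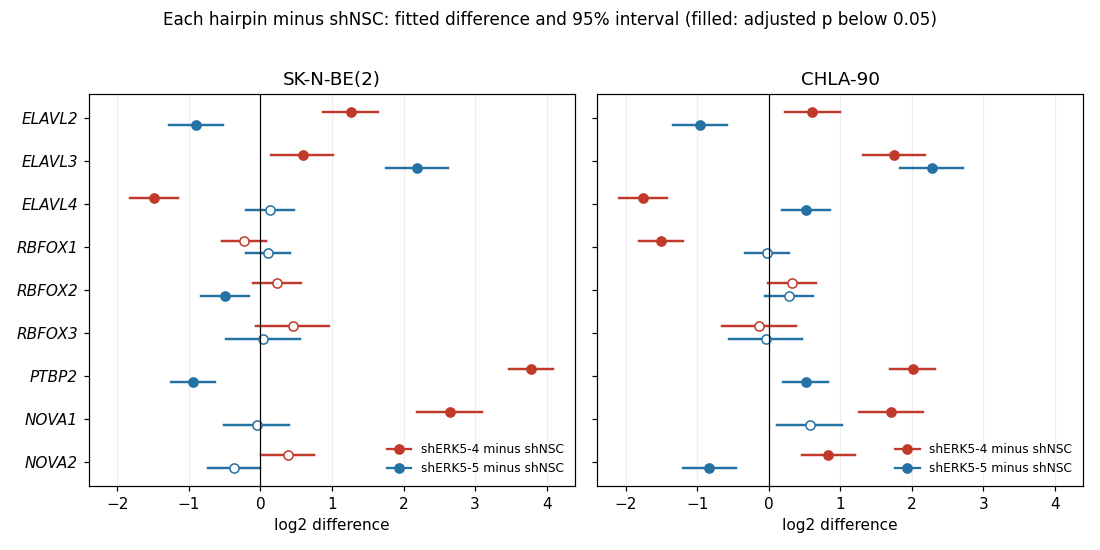
Log2 difference (horizontal axis) of each hairpin from shNSC for the 9 genes (rows) in SK-N-BE(2) (left) and CHLA-90 (right), with 95% intervals from the fit, 3 arrays per group, and filled points where the adjusted p was below 0.05. The red shERK5-4 points reach 3.78 for PTBP2 in SK-N-BE(2), and for ELAVL3 all 4 points are filled and right of 0.

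Among the ELAVL genes, ELAVL3 (HuC), a neuronal protein, rose with each hairpin in each line. In SK-N-BE(2) it had 6.51, 6.62 and 7.05 with shERK5-4 and 7.94, 8.28 and 8.76 with shERK5-5, against 5.86, 6.10 and 6.46 with shNSC. In CHLA-90 it had 13.57, 13.56 and 13.67 with shERK5-4 and 13.97, 14.24 and 14.17 with shERK5-5, against 11.75, 11.67 and 12.13 with shNSC. In both lines the shERK5-5 arrays were the highest, the shERK5-4 arrays came next, and the groups did not overlap. The rise with shERK5-5 was 4.55-fold in SK-N-BE(2) (2.19, SE 0.21, adjusted p = 1.41e-07) and 4.85-fold in CHLA-90 (2.28, SE 0.21, adjusted p = 2.16e-07). With shERK5-4 it was 3.36-fold in CHLA-90 (1.75, SE 0.21, adjusted p = 1.75e-06). The rise of 1.50-fold with shERK5-4 in SK-N-BE(2) (0.59, SE 0.21, adjusted p = 0.045) was the least firm. Its call was lost without shNSC replicate 1, shNSC replicate 2, shERK5-4 replicate 2 or shERK5-4 replicate 3 (adjusted p = 0.204, 0.11, 0.0564 and 0.206). It was also lost after median centring of the arrays (adjusted p = 0.0566) and with only the SK-N-BE(2) arrays fitted (adjusted p = 0.0939). ELAVL3 lies at chr19:11451326-11481046.

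ELAVL4 (HuD), which stabilises transcripts during axon growth, fell with shERK5-4 in both lines. In SK-N-BE(2) it had 12.78, 13.24 and 13.12 with shERK5-4 and 14.54, 14.67 and 14.79 with shERK5-5, against 14.55, 14.52 and 14.54 with shNSC. In CHLA-90 it had 14.12, 13.75 and 13.93 with shERK5-4 and 15.99, 16.29 and 16.36 with shERK5-5, against 15.65, 15.72 and 15.70 with shNSC. The shERK5-4 arrays of each line lay below all of its shNSC arrays. The fall was 2.81-fold in SK-N-BE(2) (-1.49, SE 0.16, adjusted p = 2.91e-07) and 3.38-fold in CHLA-90 (-1.76, SE 0.16, adjusted p = 4.47e-08). With shERK5-5 the difference was 0.13 in SK-N-BE(2) (95% interval -0.208 to 0.468) and 0.52 in CHLA-90 (SE 0.16, adjusted p = 0.0371). That small rise in CHLA-90 did not pass the threshold without shNSC replicate 1, 2 or 3 or without shERK5-5 replicate 2 or 3 (adjusted p = 0.107, 0.0748, 0.0901, 0.0919 and 0.107). Nor did it pass after median centring (adjusted p = 0.0523) or with only the CHLA-90 arrays fitted (adjusted p = 0.0574). ELAVL4 lies at chr1:50048055-50203772.

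ELAVL2 (HuB), which is found in neurons and also in germ cells, rose with shERK5-4 and fell with shERK5-5. In SK-N-BE(2) it had 9.98, 10.41 and 10.70 with shERK5-4 and 8.18, 8.41 and 8.02 with shERK5-5, against 9.11, 9.19 and 9.01 with shNSC. In CHLA-90 it had 12.10, 11.92 and 12.18 with shERK5-4 and 10.23, 10.77 and 10.49 with shERK5-5, against 11.42, 11.46 and 11.49 with shNSC. In each line the shNSC arrays lay between the hairpin groups without touching either. With shERK5-4 the log2 difference was 1.26 in SK-N-BE(2) (SE 0.18, adjusted p = 1.6e-05) and 0.61 in CHLA-90 (SE 0.18, adjusted p = 0.0229). With shERK5-5 it was -0.90 in SK-N-BE(2) (SE 0.18, adjusted p = 0.00152) and -0.96 in CHLA-90 (SE 0.18, adjusted p = 0.0011). The rise with shERK5-4 in CHLA-90 lost its call without shNSC replicate 1, 2 or 3 or without shERK5-4 replicate 1 or 3 (adjusted p = 0.0693, 0.0588, 0.0514, 0.0686 and 0.0904). ELAVL2 lies at chr9:23690104-23850601.

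Among the RBFOX genes only RBFOX1, with shERK5-4 in CHLA-90, differed from shNSC by more than 1 in size on the log2 scale. RBFOX1, a splicing factor of neurons and muscle, had 6.97, 6.83 and 6.99 with shERK5-4 and 8.41, 8.42 and 8.43 with shERK5-5 in CHLA-90, against 8.39, 8.38 and 8.55 with shNSC. The shERK5-4 arrays stood alone at the bottom. The fall was 2.85-fold (-1.51, SE 0.15, adjusted p = 9.7e-08), and the difference with shERK5-5 was -0.02 (95% interval -0.326 to 0.286). In SK-N-BE(2) RBFOX1 was between 4.22 and 4.81, below the array's median on 9 of 9 arrays, and its differences were -0.23 with shERK5-4 (adjusted p = 0.321) and 0.11 with shERK5-5 (adjusted p = 0.762).

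RBFOX2, the broadly expressed member of the family, had 13.20, 12.99 and 12.86 with shERK5-4 and 12.19, 12.37 and 12.33 with shERK5-5 in SK-N-BE(2), against 12.72, 12.92 and 12.72 with shNSC. The shERK5-5 arrays lay below the others. The difference with shERK5-5 was -0.49 (SE 0.16, adjusted p = 0.0493), just inside the threshold, and it fell outside it whichever of the 6 arrays compared was left out (adjusted p between 0.0793 without shNSC replicate 3 and 0.19 without shNSC replicate 2, with 0.0843, 0.172, 0.0835 and 0.101 without shNSC replicate 1 and shERK5-5 replicates 1, 2 and 3). In CHLA-90 its differences were 0.33 with shERK5-4 (adjusted p = 0.193) and 0.28 with shERK5-5 (adjusted p = 0.286). RBFOX3, the antigen of the neuronal marker antibody NeuN, stayed between 4.52 and 5.76 over all 18 arrays. It was below the array's median on 8 of 9 SK-N-BE(2) arrays and 9 of 9 CHLA-90 arrays. Its differences lay between -0.14 and 0.45 with overlapping groups, and none of the 4 passed the threshold (adjusted p between 0.229 and 0.97).

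Counted over the 9 genes, shERK5-4 in SK-N-BE(2) raised 4 and lowered 1, where 23.9% of all probes passed the threshold (12.2% higher, 11.7% lower). shERK5-5 in SK-N-BE(2) raised 1 and lowered 3, where 12.8% of all probes passed (6.76% higher, 6.07% lower). In CHLA-90 shERK5-4 raised 5 and lowered 2, where 18.3% of all probes passed (10% higher, 8.25% lower). shERK5-5 in CHLA-90 raised 3 and lowered 2, where 12.7% of all probes passed (5.85% higher, 6.84% lower). The shERK5-5 count of 5 in CHLA-90 was 3 without shNSC replicate 2, shNSC replicate 3 or shERK5-5 replicate 2. The median of the 9 log2 differences with shERK5-4 was 0.45 in SK-N-BE(2) and 0.61 in CHLA-90, against 0.01 over all probes in each line. With shERK5-5 it was -0.05 in SK-N-BE(2) and 0.28 in CHLA-90, against 0.00 and 0.05 over all probes. The genes were chosen with results of these data known, so these counts describe the list and set it apart from nothing. For the mean of both hairpins against shNSC, 3 of the 9 rose and 1 fell in SK-N-BE(2), where 17% of all probes passed (8.58% higher, 8.43% lower). In CHLA-90 3 rose and 2 fell, where 11.9% of all probes passed (5.57% higher, 6.29% lower). Such a mean hides genes that moved in opposite directions: for ELAVL2 it was 0.18 in SK-N-BE(2) and -0.17 in CHLA-90, neither past the threshold (adjusted p = 0.548 and 0.587). The comparisons of a hairpin in SK-N-BE(2) and in CHLA-90 share no arrays. With shERK5-4, 5 of the 9 passed in the same direction in both lines (ELAVL2, ELAVL3, PTBP2 and NOVA1 higher, ELAVL4 lower), as did 10.4% of all probes. This count was 3 without CHLA-90 shNSC replicate 1, shERK5-4 replicate 1 or shERK5-4 replicate 3. With shERK5-5, 2 passed in the same direction in both lines (ELAVL3 higher, ELAVL2 lower), as did 4.58% of all probes.

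The hairpins themselves were compared next, since both are directed at the same kinase and MAPK7 did not differ between them beyond the error. In SK-N-BE(2) 7 of the 9 genes differed between shERK5-4 and shERK5-5 (5 higher and 2 lower with shERK5-4), where 24.5% of all probes did (11.8% higher, 12.6% lower). PTBP2 was 26.4-fold higher with shERK5-4 (4.72, SE 0.15, adjusted p = 1.68e-15) and NOVA1 6.48-fold higher (2.70, SE 0.22, adjusted p = 2.44e-09). ELAVL2 was higher by 2.16, NOVA2 by 0.75 and RBFOX2 by 0.72, while ELAVL3 was lower (-1.60) and so was ELAVL4 (-1.62). RBFOX1 differed by -0.34 (adjusted p = 0.109), and passed the threshold only without shERK5-4 replicate 3 among the arrays left out (-0.44, adjusted p = 0.0494). In CHLA-90 6 of the 9 differed (4 higher and 2 lower with shERK5-4), where 27.2% of all probes did (14.8% higher, 12.4% lower). NOVA2 was higher with shERK5-4 by 1.66, ELAVL2 by 1.57, PTBP2 by 1.50 and NOVA1 by 1.14. ELAVL4 was lower (-2.28, adjusted p = 6.48e-10), and so was RBFOX1 (-1.49, adjusted p = 8.37e-08). ELAVL3 differed by -0.53 in CHLA-90 with adjusted p = 0.0663 (95% interval -0.961 to -0.0925), and passed the threshold after quantile normalization of all arrays (-0.61, adjusted p = 0.0265).

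**Figure D3:**
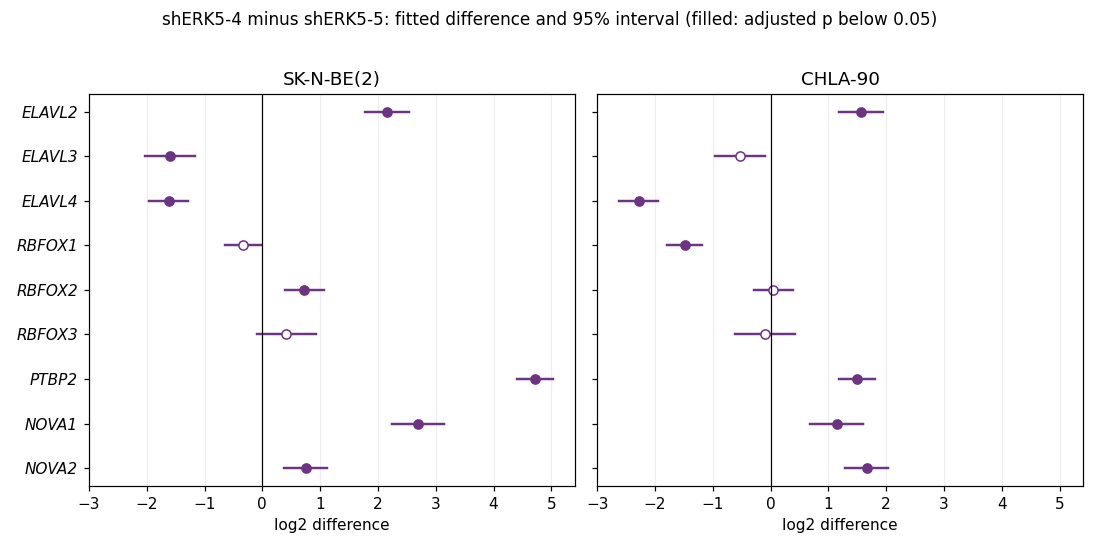
Log2 difference of shERK5-4 minus shERK5-5 (horizontal axis) for the 9 genes (rows) in SK-N-BE(2) (left) and CHLA-90 (right), with 95% intervals from the fit, 3 arrays per group, and filled points where the adjusted p was below 0.05. PTBP2 lies at 4.72 in SK-N-BE(2) and 1.50 in CHLA-90, and ELAVL4 lies left of 0 in both lines.

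The lines were also compared for the size of each response. For the mean of both hairpins, 1 of the 9 genes differed between lines (0 higher and 1 lower in CHLA-90), where 4.39% of all probes did (2.19% higher, 2.2% lower). That gene was RBFOX1, and its CHLA-90 change less its SK-N-BE(2) change was -0.71 (SE 0.18, adjusted p = 0.0257). The call was lost without SK-N-BE(2) shNSC replicate 1 or 2, CHLA-90 shNSC replicate 1 or 3, or CHLA-90 shERK5-4 replicate 2 (adjusted p = 0.0612, 0.0734, 0.052, 0.0879 and 0.0505). Each hairpin alone was compared between lines as well, a comparison added after the data had been seen. With shERK5-4, 3 of the 9 differed between lines, where 7.23% of all probes did (3.89% higher, 3.33% lower): PTBP2 (-1.77, adjusted p = 1.05e-05), RBFOX1 (-1.28, adjusted p = 0.000385) and ELAVL3 (1.16, adjusted p = 0.0167). ELAVL3's call was lost without SK-N-BE(2) shNSC replicate 3 (1.00, adjusted p = 0.055). The count of 3 was 5 without SK-N-BE(2) shERK5-4 replicate 1, where ELAVL2 (-0.84, adjusted p = 0.043) and NOVA1 (-1.12, adjusted p = 0.0302) also passed. With shERK5-5, 1 differed, where 5.39% of all probes did (2.4% higher, 2.99% lower): PTBP2 (1.46, adjusted p = 0.000326). RBFOX2 missed the threshold (0.77, adjusted p = 0.0506) and passed it without CHLA-90 shERK5-5 replicate 2 or 3 (adjusted p = 0.0367 and 0.0393), which made the count 2. RBFOX1 was below the array's median on every SK-N-BE(2) array, and whether a fall could have been measured there was not tested.

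Levels of the lines under shNSC depend on how the arrays of the lines were put on a common scale. The array medians were 6.35 to 6.43 in CHLA-90 and 5.63 to 5.69 in SK-N-BE(2), and the median log2 difference over all probes, CHLA-90 minus SK-N-BE(2), was 0.45 as deposited, -0.27 after median centring and -0.03 after quantile normalization. As deposited, 10371 probes were higher and 2490 lower in CHLA-90. After median centring 4110 were higher and 7960 lower, and after quantile normalization 5067 and 5277. Of the 9 genes 7 differed as deposited (6 higher and 1 lower in CHLA-90), where 60% of all probes did (48.4% higher, 11.6% lower). ELAVL3 was the furthest apart, with 11.75, 11.67 and 12.13 in CHLA-90 against 5.86, 6.10 and 6.46 in SK-N-BE(2). Its difference was 5.71 as deposited (52.3-fold), 4.99 after median centring and 5.15 after quantile normalization. NOVA2 (3.97, 3.25 and 3.29 in the same order), RBFOX1 (3.89, 3.17 and 3.22), NOVA1 (3.24, 2.52 and 2.64) and ELAVL2 (2.35, 1.64 and 1.88) kept their direction and passed the threshold under all 3 scalings. ELAVL4 was higher in CHLA-90 by 1.15, 0.44 and 1.16, and RBFOX2 was lower (-0.60, -1.32 and -0.94), also past it under all 3. PTBP2 did not differ as deposited (0.20, adjusted p = 0.247), was lower in CHLA-90 after median centring (-0.52, adjusted p = 0.00597) and did not differ after quantile normalization (-0.27, adjusted p = 0.15). RBFOX3 changed sign in the same way (0.26, -0.46 and -0.38) without passing the threshold.

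**Figure D4:**
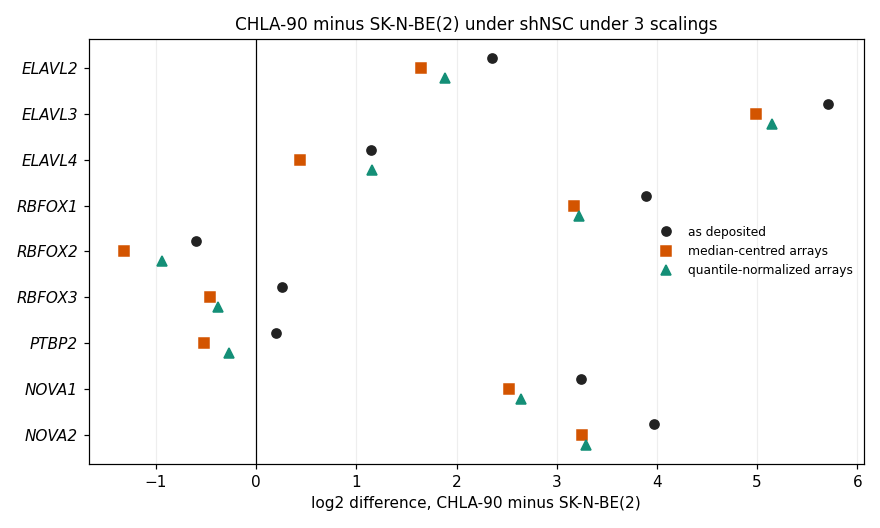
Log2 difference under shNSC, CHLA-90 minus SK-N-BE(2) (horizontal axis), of the 9 genes (rows), as deposited (black circles), after median centring of the arrays (orange squares) and after quantile normalization (green triangles), 3 arrays per line. ELAVL3 lies between 4.99 and 5.71, while PTBP2 and RBFOX3 lie right of 0 as deposited and left of 0 after either scaling.

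Over the 6 groups, the order of levels differed by gene. PTBP2 was highest with shERK5-4 in SK-N-BE(2) (14.27 ± 0.183, SD, n = 3), then with shERK5-4 (12.71 ± 0.057), shERK5-5 (11.21 ± 0.11) and shNSC (10.69 ± 0.085) in CHLA-90, then with shNSC (10.49 ± 0.104) and shERK5-5 (9.55 ± 0.123) in SK-N-BE(2). Only the 2 shNSC groups overlapped among these neighbours. For ELAVL3, all 3 CHLA-90 groups (11.85 to 14.13) stood above all 3 SK-N-BE(2) groups (6.14 to 8.33), and no neighbours overlapped. For ELAVL4, both shERK5-4 groups (13.93 ± 0.185 in CHLA-90 and 13.05 ± 0.239 in SK-N-BE(2)) were below all the others. These orders across lines hold on the deposited scale.

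Other splicing and RNA-binding genes were read from lists chosen, like the members, with earlier results of these data known. Of 30 measured tissue-regulated splicing and RNA-binding regulators, shERK5-4 raised 5 and lowered 5 in SK-N-BE(2), 33.3% of the list against 23.9% of all probes. In CHLA-90 it raised 2 and lowered 2, 13.3% against 18.3% of all probes and so a smaller share than the background. shERK5-5 raised 3 and lowered 6 in SK-N-BE(2), 30% against 12.8% of all probes, and raised 4 and lowered 4 in CHLA-90, 26.7% against 12.7%. CELF3, a brain-enriched splicing factor, rose with each hairpin in each line (2.75 and 1.42 with shERK5-4 and 1.35 and 0.93 with shERK5-5, SK-N-BE(2) named before CHLA-90). Its call with shERK5-5 in CHLA-90 was lost without shNSC replicate 1 or 2 or shERK5-5 replicate 2 or 3 (adjusted p = 0.0544, 0.115, 0.0522 and 0.0927). KHDRBS3 (T-STAR), a STAR-family splicing regulator, fell with shERK5-4 (-1.61 in SK-N-BE(2) and -2.47 in CHLA-90) and rose with shERK5-5 (1.47 and 0.85). The SK-N-BE(2) shERK5-4 count of 10 in this list was 5 without shNSC replicate 3. The CHLA-90 shERK5-5 count of 8 was 4 without shNSC replicate 1 or 2 and 5 without shERK5-5 replicate 2 or 3.

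Lists of general splicing factors were read in the same way. With shERK5-4 in SK-N-BE(2), of 13 measured SR proteins, which bind exons and mostly promote their inclusion, 8 fell and 1 rose, 69.2% of the list against 23.9% of all probes (11.7% of all probes fell), with a list median of -0.48 against 0.01 over all probes. Of 20 measured hnRNP proteins, which often repress exons, 10 fell and 0 rose, 50% of the list (median -0.30). Without shNSC replicate 3 these counts of 9 and 10 were 5 and 6. In CHLA-90 shERK5-4 lowered 3 and raised 1 of the SR proteins, 30.8% of the list against 18.3% of all probes (8.25% of all probes fell). It lowered 4 and raised 0 of the hnRNP proteins there, and this 20% is near the share of all probes. SRSF4, an SR protein, fell by 1.58 in SK-N-BE(2) and by 1.50 in CHLA-90 on the log2 scale, and SRSF7 fell by 1.01 and by 0.63. Among the hnRNP proteins RALY fell by 1.69 in SK-N-BE(2) and by 1.47 in CHLA-90, and HNRNPA0 fell by 0.83 and by 0.96. With shERK5-5 3 SR proteins fell and 0 rose in SK-N-BE(2), 23.1% against 12.8% of all probes, and 2 fell and 0 rose in CHLA-90, 15.4% against 12.7%. Of the hnRNP proteins 1 rose and 1 fell in SK-N-BE(2), 10% of the list, and 1 fell in CHLA-90, 5%. The count of 3 was 1 without shNSC replicate 3 or any 1 of the shERK5-5 arrays, and the CHLA-90 SR count of 2 was 1 without shNSC replicate 1, shNSC replicate 3 or shERK5-5 replicate 1. The CHLA-90 hnRNP count with shERK5-5 was 3 without shERK5-5 replicate 3.

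Of 29 measured genes of the core spliceosome, shERK5-4 raised 2 and lowered 4 in SK-N-BE(2), 20.7% of the list and near the 23.9% of all probes. It raised 1 and lowered 2 in CHLA-90, 10.3% against 18.3% of all probes. shERK5-5 raised 0 and lowered 2 in SK-N-BE(2), 6.9% against 12.8%, and raised 0 and lowered 3 in CHLA-90, 10.3% against 12.7%. Set against shERK5-5 in CHLA-90, shERK5-4 had 12 of these genes higher and 0 lower, 41.4% of the list against 27.2% of all probes (median 0.34 against -0.05). In SK-N-BE(2) it had 2 higher and 4 lower, 20.7% against 24.5%. These counts between hairpins were not recomputed with arrays left out. The SK-N-BE(2) count of 6 with shERK5-4 was 2 without shNSC replicate 1 and 3 without shNSC replicate 3 or shERK5-4 replicate 2. The SK-N-BE(2) count of 2 with shERK5-5 was 1 without shNSC replicate 1 or shERK5-5 replicate 1 and 0 without any other array compared. The CHLA-90 count of 3 with shERK5-4 was 1 without shNSC replicate 2, shERK5-4 replicate 1 or shERK5-4 replicate 3, and that of 3 with shERK5-5 was 1 without shNSC replicate 3. PRPF6, a component of the tri-snRNP, fell with shERK5-5 in CHLA-90 (-1.04, adjusted p = 0.00125).

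REST represses neuronal genes in other cells, and miR-124 acts against PTBP1 and the small CTD phosphatases that work with REST. The miR-124 genes had no named probe. REST itself was higher with shERK5-4 in CHLA-90 (0.63, adjusted p = 0.0349) and lower with shERK5-5 (-0.65, adjusted p = 0.0392). The shERK5-5 arrays there ran from 7.56 to 8.50 (SD 0.475, n = 3). The REST calls were not recomputed with arrays left out. In SK-N-BE(2) its differences were 0.43 with shERK5-4 (adjusted p = 0.146) and -0.01 with shERK5-5 (adjusted p = 0.993). Of the 5 measured genes of the list, shERK5-4 raised 2 and lowered 1 in SK-N-BE(2), where 23.9% of all probes passed, and raised 3 and lowered 1 in CHLA-90, where 18.3% did. shERK5-5 raised 3 and lowered 0 in SK-N-BE(2), where 12.8% of all probes passed, and raised 2 and lowered 1 in CHLA-90, where 12.7% did. RCOR1 (CoREST), the corepressor of REST, rose with each hairpin in each line (0.90 and 1.02 with shERK5-4, 0.78 and 0.84 with shERK5-5, SK-N-BE(2) named before CHLA-90). The CHLA-90 shERK5-4 count of 4 was 2 without any 1 of the shNSC arrays or without shERK5-4 replicate 1 or 3, and also 2 after median centring or quantile normalization within each line.

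Of 12 measured transcripts known from other work to be bound by ELAVL proteins, shERK5-4 raised 1 and lowered 1 in SK-N-BE(2), 16.7% of the list against 23.9% of all probes, and raised 1 and lowered 3 in CHLA-90, 33.3% against 18.3%. shERK5-5 raised 3 and lowered 1 in SK-N-BE(2), 33.3% against 12.8%, and raised 5 and lowered 0 in CHLA-90, 41.7% against 12.7%. MYCN, the neuroblastoma oncogene, fell with shERK5-4 (-2.02 in SK-N-BE(2) and -1.89 in CHLA-90), fell with shERK5-5 in SK-N-BE(2) (-0.80) and rose with it in CHLA-90 (0.97). MAPT, which encodes the microtubule protein tau, rose with shERK5-5 (1.36 in SK-N-BE(2) and 1.14 in CHLA-90), and its differences with shERK5-4 did not pass the threshold (-0.01 and 0.46). The SK-N-BE(2) count with shERK5-4 was 1 without shNSC replicate 3 or any 1 of the shERK5-4 arrays, and the count of 4 with shERK5-5 was 2 without shNSC replicate 2, shERK5-5 replicate 1 or shERK5-5 replicate 2.

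Markers of cell identity were read for both hairpins. With shERK5-4, 4 of 8 measured adrenergic neuroblastoma markers fell and 0 rose in SK-N-BE(2), where 11.7% of all probes fell, and 5 fell and 0 rose in CHLA-90, where 8.25% did. With shERK5-5 1 rose in SK-N-BE(2) and 1 fell in CHLA-90. That is 12.5% of the list in each line, near the 12.8% and 12.7% of all probes that passed. The rise in SK-N-BE(2) was lost whichever of the 6 arrays compared was left out. With shERK5-4 the summed log2 signal of the list was 73.8 to 77.9 in SK-N-BE(2) and 86.8 to 90.0 in CHLA-90, against 82.9 to 84.9 and 103.3 to 106 with shNSC. ISL1, a transcription factor of sympathetic neurons, fell by 3.00 in SK-N-BE(2) and by 3.28 in CHLA-90. Of 7 neuronal markers, 4 fell and 0 rose with shERK5-4 in SK-N-BE(2), where 11.7% of all probes fell. In CHLA-90 3 fell and 0 rose with it, where 8.25% of all probes fell. In SK-N-BE(2) shERK5-5 raised 2 and lowered 1, 42.9% of the list against 12.8% of all probes. In CHLA-90 it raised 3 and lowered 2, 71.4% against 12.7%. This count of 5 was 3 without CHLA-90 shNSC replicate 1 or shERK5-5 replicate 2. The neuronal sum in SK-N-BE(2) was 71.6 to 73.2 with shERK5-4 and 79.6 to 82.0 with shERK5-5, against 76.5 to 76.9 with shNSC. In CHLA-90 it was 82.6 to 83.4 with shERK5-4 and 83.1 to 87.0 with shERK5-5, against 87.4 to 87.6. The CHLA-90 sum with shERK5-5 was lower although the median log2 difference of the list was 0.36, against 0.05 over all probes. NEFL was the lowest gene of that group (mean 6.31), while the lowest with shNSC was SYP (9.43). The defining adrenergic marker DBH was near the bottom of the scale in SK-N-BE(2) (group means 3.81 with shERK5-4 and 4.85 with shERK5-5, against 4.87 with shNSC), and in CHLA-90 it fell with shERK5-4 (-5.27, adjusted p = 1.62e-12). The part of these changes in the members' results was not tested.

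Markers of other cell types were read as well. Schwann cell (3 measured) and endothelial (4 measured) markers had 0 probes above the array's median in any group. Of 4 blood and immune markers PTPRC was above it in SK-N-BE(2) and fell there with shERK5-4 (-1.95, adjusted p = 1.19e-08). With shERK5-5 4 of 6 fibroblast markers rose and 0 fell in SK-N-BE(2), where 6.76% of all probes rose, and the count was 2 without shNSC replicate 1, shNSC replicate 3, shERK5-5 replicate 1 or shERK5-5 replicate 3. With shERK5-4 1 rose and 3 fell there, 66.7% of the list against 23.9% of all probes. In CHLA-90 0 rose and 2 fell with shERK5-4, 33.3% against 18.3%. All 6 fibroblast markers were above the array's median in SK-N-BE(2) and 5 of 6 in CHLA-90, so at these probes the labelled neuroblastoma lines carried signal for markers of this list. The summed fibroblast signal in SK-N-BE(2) was 63.0 to 63.9 with shERK5-4 and 71.8 to 72.9 with shERK5-5, against 66.6 to 67.2 with shNSC. In CHLA-90 it was 50.3 to 50.9 with shERK5-4 and 53.5 to 54.6 with shERK5-5, against 52.2 to 52.6. Of the 6 mesenchymal neuroblastoma markers 4 passed the threshold with shERK5-4 in CHLA-90 (2 higher, 2 lower), 66.7% against 18.3% of all probes. In SK-N-BE(2) 1 passed with shERK5-4 (lower), 16.7% against 23.9%. With shERK5-5, 2 fell in CHLA-90, 33.3% against 12.7% of all probes. In SK-N-BE(2) 1 fell with shERK5-5, 16.7% against 12.8%. Their part in the members' results was not tested.

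After subtraction of each line's mean, PTBP2 and NOVA1 had the widest spread of the members over the 18 arrays (SD 1.61 and 1.08). The genes whose centred values most resembled theirs were sought over all named genes. For PTBP2 they were PRKAR2B (Pearson r 0.968), ZBTB26 (0.966), TAX1BP1 (0.960), RC3H2 (0.959) and NOVA1 (0.953). For NOVA1 they were RYK (0.963), WDR17 (0.959), SKIL (0.959), B3GALNT2 (0.957) and SECISBP2L (0.954). The points are arrays of the same 6 groups, so these values say only that the group differences have the same shape. PRKAR2B, a regulatory subunit of protein kinase A, differed from shNSC in SK-N-BE(2) by 1.88 with shERK5-4 and -0.43 with shERK5-5, and in CHLA-90 by 1.42 and 0.16. SKIL, a corepressor of TGF-beta signalling, differed by 2.32 and 0.32 in SK-N-BE(2) and by 1.76 and 0.70 in CHLA-90.

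Bases before the starts of the members were read from RefSeq's GRCh38.p14, which listed starts for 8 of the 10 genes. The 37 windows hold the 250 bases before a start, and 7 motifs were searched on both strands after the values had been seen. The windows below are shown for the members that moved furthest up and down with shERK5-4 in SK-N-BE(2) (PTBP2 and NOVA1 up, ELAVL4 down), and capitals mark the motif matches.
PTBP2, chr1:96722388-96722637, plus strand: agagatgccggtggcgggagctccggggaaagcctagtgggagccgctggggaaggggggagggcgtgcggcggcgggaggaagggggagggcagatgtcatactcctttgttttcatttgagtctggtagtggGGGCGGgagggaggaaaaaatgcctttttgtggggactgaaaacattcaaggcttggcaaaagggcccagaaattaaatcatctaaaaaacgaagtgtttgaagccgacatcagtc
NOVA1, upstream start, chr14:26598034-26598283, minus strand: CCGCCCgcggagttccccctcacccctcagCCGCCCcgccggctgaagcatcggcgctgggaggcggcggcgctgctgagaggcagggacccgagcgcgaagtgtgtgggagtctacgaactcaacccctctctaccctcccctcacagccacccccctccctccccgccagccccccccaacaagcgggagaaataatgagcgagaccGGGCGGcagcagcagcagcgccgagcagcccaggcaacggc
NOVA1, next start, chr14:26596098-26596347, minus strand: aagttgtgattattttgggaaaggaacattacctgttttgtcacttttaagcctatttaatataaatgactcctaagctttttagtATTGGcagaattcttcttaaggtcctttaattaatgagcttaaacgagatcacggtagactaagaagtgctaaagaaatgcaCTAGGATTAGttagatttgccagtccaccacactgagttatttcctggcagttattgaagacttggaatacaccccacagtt
ELAVL4, upstream start, chr1:50047805-50048054, plus strand: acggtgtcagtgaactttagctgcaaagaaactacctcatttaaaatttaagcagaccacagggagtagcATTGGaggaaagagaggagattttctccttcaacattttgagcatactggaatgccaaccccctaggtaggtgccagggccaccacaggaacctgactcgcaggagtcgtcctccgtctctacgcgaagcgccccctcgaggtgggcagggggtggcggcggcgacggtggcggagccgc

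The PTBP2 window holds 1 GC box (GGGCGG), 116 bases before the start, and lies within the annotated gene. The upstream NOVA1 window holds 3 GC boxes, and 71.6% of its bases are G or C. The next NOVA1 window, with 35.6% G or C, holds 1 CCAAT box in the opposite strand. It also holds 1 match to a loose pattern for the MEF2 box, 82 bases before the start. The pattern fixes only the outer bases and leaves the middle ones free. The middle of this match holds G as well as A and T, so the match was not shown to be a MEF2 box. MEF2 factors are textbook substrates of ERK5, which is why a pattern for their box was included. The loose pattern was found in 1 of the 37 windows, 2.7%. It was in 2.36% of 35116 windows of all genes, so the shares are near each other. The next NOVA1 window was printed after the match had been seen. The ELAVL4 window holds 1 CCAAT box in the opposite strand, marked as ATTGG, 180 bases before the start. The GC box was in 35.1% of the members' windows and 42.6% of all, and the CCAAT box in 35.1% and 32%. These shares count windows and not genes. Of the 37 windows 12 were of RBFOX3 and 2 of PTBP1, which has no value here. ELAVL3 and RBFOX2 had no window. The E-box bound by MYC family proteins (CACGTG) was in 1 member window, of RBFOX3, and in 6.34% of all. The cAMP response element (TGACGTCA, 1.65% of all), the AP-1 site (TGANTCA, 6.57%) and the left part of the REST element (TTCAGCACC, 0.288%) were in 0 of the 37. A missing match says only that these letters are not in these windows.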

How the data were processed

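Whole-transcript arrays measured RNA of 18 samples, and the labels gave the groups. The deposited file holds 1 log2 signal per probe and array; their log base is inferred from the values, and neither the authors' software nor a genome build is named in the labels. The genes and all lists were chosen with earlier results of these data known. In R 4.3.3, limma 3.58.1 fitted 6 group means to all 21448 probes (12 residual and 9.59 prior degrees of freedom), and each contrast was adjusted by the Benjamini-Hochberg method over every probe. The annotation gave 17709 probes 1 symbol and 3739 none.

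Of 12 contrasts, 10 were planned, and those of each hairpin between lines were chosen later, with the data seen. Named genes are the members, MAPK7, up to 4 per list with the smallest p in the contrasts of the mean of both hairpins, and the 5 most like PTBP2 and NOVA1. REST was named outside this rule after its values were seen. The two-sided p of the MAPK7 permutation doubles the smaller tail, a convention chosen after a count of absolute differences had been seen to give a smaller p. On data simulated for shERK5-4 against shNSC in SK-N-BE(2), over 21448 probes, the fit recovered 10.4% of changes of 0.5 (log2), 62.7% of changes of 1 and 97% of changes of 2, with 5 false calls. The simulation put changes into only a small part of the probes, in the shERK5-4 group alone and with normal noise. In the data 23.9% of all probes passed in that comparison. The adjustment depends on this share, so recovery in the data can differ from these values and was not tested. Precision is set by the 3 arrays per group. Where the triplicates are repeat cultures of a line, p-values measure only the spread between those cultures. Alternatives changed the scaling, probe filter, estimation, weights, threshold, minimum fold, block and arrays used. Plots used matplotlib 3.10.9 under Python 3.11.15.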

Additional observations from a re-analysis of the deposited data

Results flagged for a closer look

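The change of 3 genes differed between the lines by a test of the difference itself, given as CHLA-90 minus SK-N-BE(2) on the log2 scale. For the mean of both hairpins RBFOX1 differed by -0.71 (adjusted p = 0.0257). The other 4 differences come from the single-hairpin comparisons, which were chosen once the data were known. With shERK5-4 PTBP2 differed by -1.77 (adjusted p = 1.05e-05): it rose by 2.01 in CHLA-90 and by 3.78 in SK-N-BE(2). With shERK5-4 RBFOX1 differed by -1.28 (adjusted p = 0.000385), with -1.51 in CHLA-90 and -0.23 in SK-N-BE(2), where its signal was below the array's median. With shERK5-4 ELAVL3 differed by 1.16 (adjusted p = 0.0167), with 1.75 in CHLA-90 and 0.59 in SK-N-BE(2). With shERK5-5 PTBP2 differed by 1.46 (adjusted p = 0.000326), with 0.52 in CHLA-90 and -0.94 in SK-N-BE(2), so its direction was opposite in the lines. Groups of 3 arrays are too small for a test of single outlying arrays.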

How the results depend on the processing

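The alternatives for the members were those planned, and were applied to the other lists and to the agreement between lines after the data had been seen. Each choice was changed alone: median centring, quantile normalization over all arrays or within a line, leaving out probes below the 25 percentile, a replicate block, arrays of 1 line only, trend and robust estimation, array weights, a threshold of 0.01, a minimum fold of 1.5, the mean of a gene's probes, and leaving out each array. Single members' differences were counted per gene, comparison and setting. With an array left out, 30 of these results lost a call, 7 gained one, 40 changed sign and 841 stayed the same. Under the other settings 19 lost a call, 11 gained one, 20 changed sign and 1066 stayed the same. Some of the 19 were lost only through the stricter threshold or the minimum fold. The mean of a gene's probes could change no member's value, since each had 1 probe. The count of members past the threshold with shERK5-5 in CHLA-90 was 3 at a threshold of 0.01 and with a minimum fold of 1.5 and 3 to 5 as arrays were left out. The count for the difference between lines was 0 with trend and robust estimation and at 0.01, and 0 to 1 as arrays were left out. The count with shERK5-4 alike in both lines was 3 to 5. Compared between lines, the shERK5-4 count of 3 was 5 without SK-N-BE(2) shERK5-4 replicate 1, and the shERK5-5 count of 1 was 2 with quantile normalization of all arrays, without dim probes, with trend and robust estimation and with array weights. MAPK7 in SK-N-BE(2) did not pass 0.01 (-0.69 with shERK5-4, -0.64 with shERK5-5), and ranged from -0.86 to -0.59 and from -0.80 to -0.53 as arrays were left out. Same-numbered arrays of a line correlated between -0.126 and 0.204 after subtraction of group means, with 7 of 18 pairs over 0.1. All 6 pairs of replicate 3 were among these (0.114 to 0.204), against 1 of 6 for replicate 1 and 0 of 6 for replicate 2. Across lines 4 of 9 replicate 3 pairs were over 0.1. Pairs of a line with other numbers lay between -0.23 and 0.24, with 4 of 36 over 0.1. The replicate 3 arrays may share a component, and this was not tested. Not every same-numbered pair was over 0.1, and the numbers were not taken as pairs. The replicate block changed 3 member calls. RBFOX2 with shERK5-5 in SK-N-BE(2) (-0.49, adjusted p = 0.0616) was lost, and ELAVL3 between hairpins in CHLA-90 (-0.53, adjusted p = 0.0163) was gained. RBFOX2 between lines under shNSC (-0.51, adjusted p = 0.0579) was lost too. As coded, the block compares the lines at the level of replicate 1 and not by group means. That value is therefore not the same quantity as the -0.60 of the main fit. The block changed the count of members past the threshold by at most 1.

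Signs changed for members whose difference had not passed the threshold. Between lines under shNSC, median centring gave -0.52 for PTBP2 and -0.46 for RBFOX3, and quantile normalization -0.27 and -0.38. Quantile normalization, over all arrays or within a line, gave 0.03 for RBFOX1 with shERK5-5 in CHLA-90, and between hairpins there -0.02 for RBFOX2 and 0.02 for RBFOX3. In the difference between lines it gave 0.00 for ELAVL4 and 0.01 for NOVA2. Median centring gave -0.03 for NOVA2 in the CHLA-90 mean. Array weights gave, for RBFOX3, 0.01 with shERK5-4, 0.14 with shERK5-5 and 0.08 for the mean in CHLA-90, and 0.11 for shERK5-5 between lines; 0.00 for RBFOX1 with shERK5-5 in CHLA-90; and for NOVA2 -0.05 for the mean in SK-N-BE(2) and 0.11 between lines.

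Leaving out an array gave, with shERK5-5 in SK-N-BE(2), -0.07 to 0.17 for RBFOX3 and -0.22 to 0.12 for NOVA1, and with shERK5-5 in CHLA-90 -0.05 to 0.04 for RBFOX1 and -0.31 to 0.25 for RBFOX3. RBFOX3 in CHLA-90 had -0.41 to 0.15 with shERK5-4, -0.36 to 0.20 for the mean and -0.21 to 0.00 between hairpins, and -0.03 to 0.52 between lines under shNSC. RBFOX2 between hairpins in CHLA-90 had -0.05 to 0.20. The NOVA2 mean had -0.09 to 0.10 in SK-N-BE(2) and -0.07 to 0.10 in CHLA-90. In the difference between lines, NOVA2 had -0.10 to 0.09 and ELAVL4 0.00 to 0.12, and for shERK5-5 alone ELAVL2 had -0.20 to 0.07, ELAVL3 -0.10 to 0.31 and RBFOX3 -0.34 to 0.21. The cause was not tested.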
